A study of Mus musculus with 4 samples.

Results

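The genes described here encode the transforming growth factor beta (TGF-beta) and bone morphogenetic protein (BMP) pathway, taken by symbol: the BMP, GDF, TGF-beta, inhibin and activin ligand genes, their receptors, the SMAD genes, the secreted antagonists Nog, Chrd, Fst and Grem1, and Bmp1. They are 53 of the 55487 genes in the deposited table. Ligands of this family bind paired type I and type II receptors, which are serine/threonine kinases. The type I receptor then phosphorylates a receptor SMAD, and that SMAD enters the nucleus together with the common SMAD, Smad4. In general, BMP receptors act on Smad1, Smad5 and Smad9, while TGF-beta and activin receptors act on Smad2 and Smad3. Secreted antagonists hold ligands away from the receptors, and in the adult brain the pathway is known for roles in neurogenic niches, synapse growth and glial responses.

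RNA had been measured in nuclei collected by fluorescence-activated sorting, either excitatory or inhibitory neurons, from wild-type (WT) adult mouse brain without the olfactory bulb. There were 2 excitatory and 2 inhibitory libraries, all labelled as batch 1. No label states how the nuclei were tagged for the sort, the age in weeks, or whether the replicates were separate animals. The p-values therefore cover the spread among these libraries, which may be technical. Values are TPM, which scale each library to the same total and divide by transcript length. Depth per library is therefore unknown, and a level in TPM may be compared between genes. In bulk nuclei, fewer cells of a type and less RNA per cell cannot be told apart.

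Most neuron markers followed the labels, but some markers of glutamatergic cells ran against them. Of 7 excitatory markers 6 were higher in excitatory nuclei, and 6 of 6 tested inhibitory markers were higher in inhibitory nuclei. The exception was Slc17a6, the glutamate transporter of thalamus and brainstem, which was 3.90-fold higher in inhibitory nuclei. Gabra6 and Cbln1, which mark the glutamatergic granule cells of the cerebellum, were 1.99-fold and 2.38-fold higher there too. Markers of striatal projection neurons (6 of 6) and of cerebellar neurons (4 of 4, Gabra6 and Cbln1 among them) were higher in inhibitory nuclei, with summed levels of 145 and 130 TPM against 728 and 768 TPM for the striatal list and of 104 and 95.5 TPM against 226 and 236 TPM for the cerebellar list. Of the striatal and cerebellar markers, 0 were at 0 in any library. Their part in the results below was not tested. Astrocyte (0 of 7), oligodendrocyte (0 of 6), precursor (0 of 4), microglia (0 of 6) and endothelial (0 of 1 tested) markers had no call by limma, and 1, 0, 2, 1 and 0 of them had an unadjusted p under 0.05. Of 5 tested mural and fibroblast markers, Dcn was called, toward excitatory nuclei, at 10.2 and 7.94 TPM against 2.17 and 2.15 TPM. The list of 6 summed to 15.0 and 13.0 TPM in excitatory against 8.59 and 6.69 TPM in inhibitory libraries. Dcn made up most of the excitatory sums. Of the 5 estimates, 3 were positive and 2 negative (Lum and Acta2). The part of mural and fibroblast RNA in the results toward excitatory nuclei was not tested.

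Among the 53 genes, 37 reached at least 1 TPM in at least 2 libraries and were tested. Excitatory and inhibitory libraries were compared on log2(TPM + 1) by limma, with adjusted p-values over all 26055 genes tested, and a gene is called where its adjusted p is under 0.05. Of the 37 genes, 4 were higher in excitatory nuclei (Chrd, Bmp3, Smad3 and Bmp1), 2 were higher in inhibitory ones (Bmp6 and Smad5) and 31 had no call. The 6 calls are 16.2% of those tested, against 12.0% of all genes tested (5.43% toward excitatory and 6.62% toward inhibitory). That is a share near the background, so the pathway as a whole did not stand out by its number of calls. With median-of-ratios scaling or quantile normalization the split was 4 and 0 (6 and 3 genes negative at an unadjusted p under 0.05). With any 1 of the 4 libraries left out, limma had 1 residual degree of freedom and 1 group held 1 library. The 6 called genes kept their direction in 24 of 24 such fits. That was fixed in advance, because the groups did not overlap for any of the 6. The median log2 fold change, excitatory minus inhibitory, was -0.17 over the 37 genes and -0.07 over all genes tested.

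**Figure D1:**
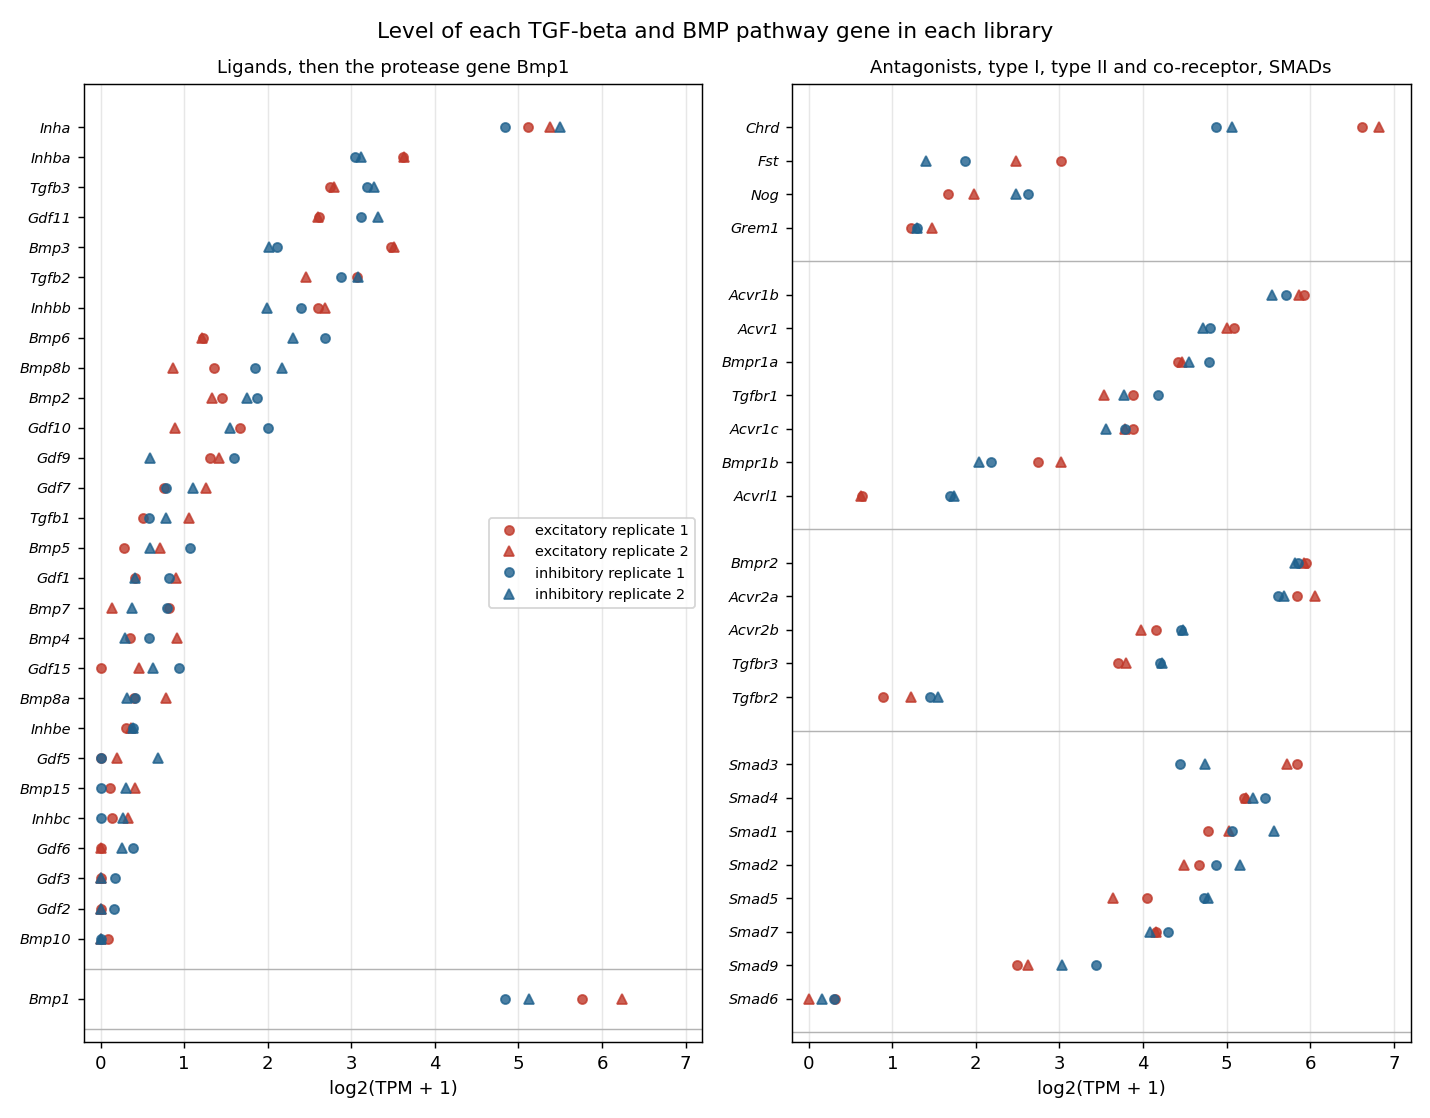
Level of each of the 53 genes in each library as log2(TPM + 1), grouped by role and ordered by mean level; red marks are excitatory, blue marks inhibitory, circles replicate 1 and triangles replicate 2. Most ligand genes sit near 0, and Chrd in the excitatory libraries (97.3 and 112.7 TPM) is the rightmost gene.

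**Figure D2:**
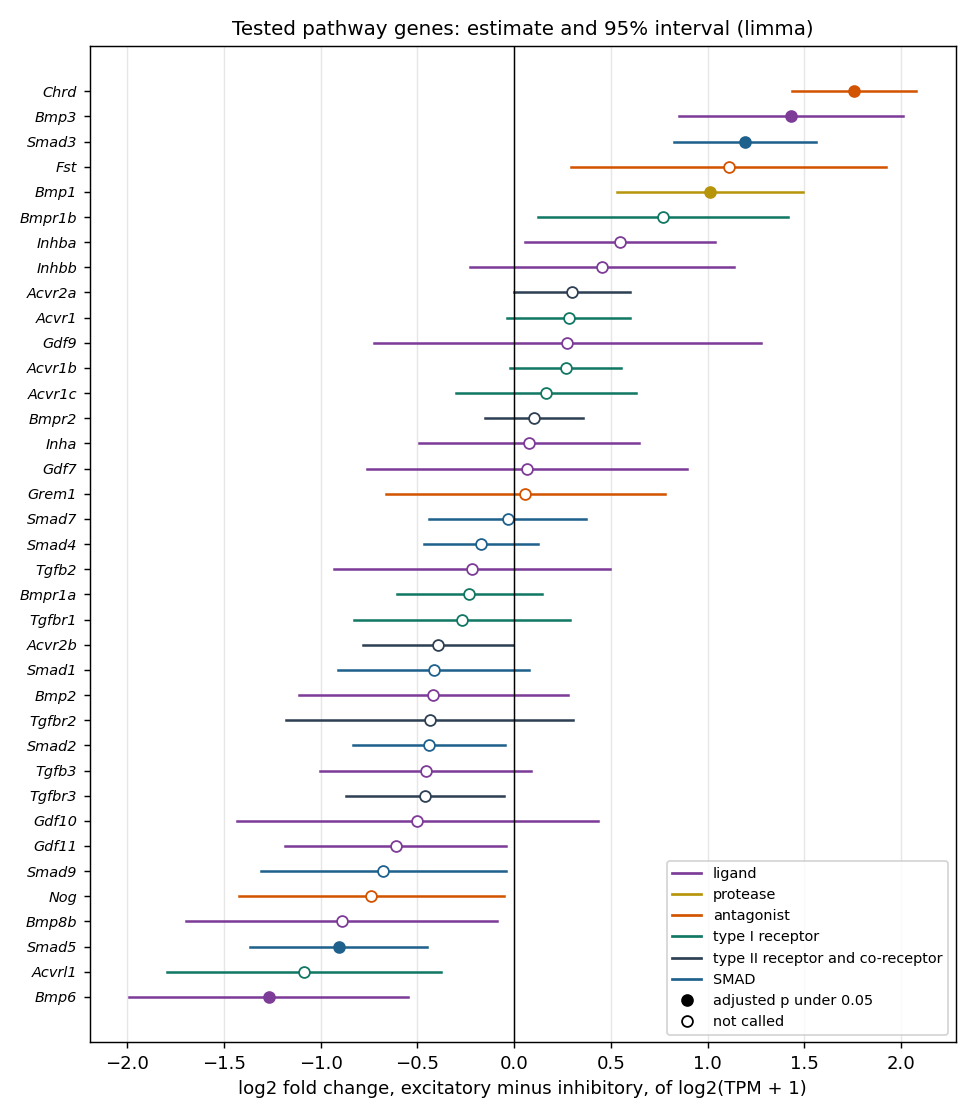
Log2 fold change of the 37 tested genes on the log2(TPM + 1) scale with 95% intervals from limma, coloured by role; filled points have an adjusted p under 0.05. Chrd, Bmp3, Smad3 and Bmp1 are the filled points to the right of 0, Smad5 and Bmp6 those to the left.

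The upstream sequences of Chrd, Smad3 and Smad5 are shown because these genes differed in the comparison and their windows hold no annotated exon. Each is the 250 bases before a RefSeq start site (GRCm38.p6, the build of mm10), 5′ to 3′ on the strand of the gene, with motif matches in capitals. The windows lie at chr16:20732877-20733126 (plus strand), chr9:63757995-63758244 (minus strand) and chr13:56702760-56703009 (plus strand).
Chrd: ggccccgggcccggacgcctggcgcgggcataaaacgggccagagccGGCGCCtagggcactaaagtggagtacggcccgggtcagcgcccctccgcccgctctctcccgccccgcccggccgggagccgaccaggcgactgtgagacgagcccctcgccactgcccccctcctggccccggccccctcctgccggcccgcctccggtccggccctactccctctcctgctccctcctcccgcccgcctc
Smad3: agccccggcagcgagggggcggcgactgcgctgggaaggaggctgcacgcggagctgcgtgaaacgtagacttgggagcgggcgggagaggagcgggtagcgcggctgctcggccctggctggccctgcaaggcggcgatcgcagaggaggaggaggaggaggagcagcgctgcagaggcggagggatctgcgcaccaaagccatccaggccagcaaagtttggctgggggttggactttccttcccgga
Smad5: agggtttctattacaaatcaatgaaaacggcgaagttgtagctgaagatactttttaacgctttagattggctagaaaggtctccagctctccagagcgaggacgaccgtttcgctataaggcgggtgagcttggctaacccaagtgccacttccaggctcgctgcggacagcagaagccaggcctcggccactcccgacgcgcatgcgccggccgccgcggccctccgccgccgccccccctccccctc

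In all, 4 motifs were searched on both strands: the EGR consensus GCGTGGGCG and its variant GCGGGGGCG, since the study concerns the factor EGR1, the GC-rich SMAD motif GGCGCC and the SMAD palindrome GTCTAGAC. The only match in the 3 windows was GGCGCC in Chrd, from base 203 to base 198 before the start, and it overlapped no other motif. Among 32851 upstream windows of this length, 9.59% held GGCGCC, 0.536% GCGTGGGCG, 2.57% GCGGGGGCG and 0.167% GTCTAGAC. The pathway genes matched 45 of these windows, from 37 genes. GGCGCC lay in 8 of the 45, GCGTGGGCG in 1 (Tgfb1), GCGGGGGCG in 1 (Tgfbr1) and GTCTAGAC in 0. The windows of Chrd, Smad3 and Smad5 had a GC content of 78.0%, 69.2% and 60.0%, against a median of 52.4%. A match describes these letters and is not a site of binding.

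Ligand genes were mostly low. Of 28, 15 stayed under the filter and were not tested: Bmp4, Bmp5, Bmp7, Bmp8a, Bmp10, Bmp15, Gdf1, Gdf2, Gdf3, Gdf5, Gdf6, Gdf15, Inhbc, Inhbe and Tgfb1. None of these 15 exceeded 1.10 TPM in any library, and Gdf2, Gdf3 and Gdf6 were listed at 0 in both excitatory libraries. Gdf1 shares 1349 exon bases with Cers1 on the same strand, and how shared reads were assigned is not stated. Its low level is therefore uncertain. Bmp5 (1878 bases), Gdf5 (936), Inhbc (268) and Bmp4 (89) share exon bases with genes on the opposite strand. The 13 tested ligands gave 1 call toward excitatory and 1 toward inhibitory nuclei, or 15.4%, near the 12.0% of all genes tested.

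Bmp3, a divergent BMP known to oppose other BMPs, was the ligand higher in excitatory nuclei. It stood at 10.2 and 10.4 TPM in the excitatory libraries and at 3.33 and 3.04 TPM in the inhibitory ones. The excitatory pair lay well above the inhibitory pair, and each pair was close together. The ratio of means was 3.23, from 10.3 ± 0.152 against 3.18 ± 0.204 TPM (SD, n = 2 each), with a log2 fold change of 1.43 ± 0.24 (SE, limma adjusted p = 0.0168). Bmp3 lies on chromosome 5 from 98854415 to 98884396 (plus strand, mm10 coordinates of GENCODE M21) and overlaps no other annotated gene. The call was lost without a filter on low values (limma adjusted p = 0.0508). That setting tests more genes, and the reason for the loss was not tested.

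Bmp6, a ligand that signals through Smad1, Smad5 and Smad9, was lower in the excitatory libraries. It stood at 1.35 and 1.31 TPM there and at 5.42 and 3.91 TPM in inhibitory nuclei. The groups did not overlap, although the inhibitory libraries differed from each other more than the excitatory ones did. The inhibitory mean was 3.51-fold higher (4.67 ± 1.07 against 1.33 ± 0.0231 TPM, SD, n = 2 each), with a log2 fold change of -1.27 ± 0.30 (SE, limma adjusted p = 0.0447). This call was lost under 4 settings, with adjusted p-values of 0.0555 with a pseudocount of 0.1, 0.106 without a filter, 0.0509 with median-of-ratios scaling and 0.0609 with quantile normalization. Bmp6 (chromosome 13, 38345107 to 38500302, plus strand) shares 224 exon bases with Txndc5 on the opposite strand, and no source used here states whether reads were counted by strand.

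The other BMP ligands tested were not called. Bmp8b, at 1.57 and 0.828 TPM in excitatory and 2.59 and 3.51 TPM in inhibitory libraries, had a log2 fold change of -0.89 (95% interval -1.70 to -0.09, adjusted p = 0.144). It overlaps exons of Ppie on the opposite strand. Bmp2 stood at 1.63 against 2.51 TPM on average. Bmp3 was thus the 1 tested BMP ligand with a positive log2 fold change, and the other 3 were negative.

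Inha and Inhba were the ligand subunit genes with the highest mean level. Inha encodes the alpha subunit, which pairs with a beta subunit to make inhibin, the hormone that opposes activin. It stood at 33.5 and 40.5 TPM in excitatory and at 27.7 and 44.0 TPM in inhibitory libraries. The inhibitory libraries enclosed both excitatory ones, and the log2 fold change was 0.08 (95% interval -0.49 to 0.65, limma adjusted p = 0.876).

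Inhba, whose product dimerises to form activin A and is known as a neuronal activity-regulated gene, stood at 11.3 and 11.4 TPM in excitatory and at 7.23 and 7.64 TPM in inhibitory libraries. The groups did not overlap, and the excitatory mean was 1.52-fold higher (log2 fold change 0.55 ± 0.20, SE), but the gene was not called (limma adjusted p = 0.143). Inhbb, the other beta subunit tested, stood at 5.25 ± 0.273 against 3.61 ± 0.916 TPM (SD, n = 2 each; adjusted p = 0.359). Inha was the more abundant of the alpha and beta A genes in each library, by the ratio of Inhba to Inha of 0.336 and 0.281 in excitatory and 0.261 and 0.174 in inhibitory libraries.

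Of the TGF-beta ligands, Tgfb3 stood at 5.73 and 5.93 TPM in excitatory and at 8.10 and 8.66 TPM in inhibitory libraries. The inhibitory pair lay above the excitatory pair, with no call (log2 fold change -0.46, 95% interval -1.003 to 0.09, adjusted p = 0.249). Tgfb2 overlapped between groups at 4.50 to 7.36 TPM in excitatory and 6.38 to 7.43 TPM in inhibitory libraries. Of the growth and differentiation factors, Gdf11, related to myostatin, stood at 5.11 and 5.09 against 7.70 and 9.01 TPM (log2 fold change -0.61, adjusted p = 0.155). Gdf7, Gdf9 and Gdf10 overlapped between groups and averaged between 0.992 and 1.99 TPM.

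Bmp1 carries the BMP name but encodes an astacin metalloprotease that processes procollagen and also cleaves the BMP antagonist chordin. It stood at 53.0 and 74.6 TPM in excitatory and at 27.7 and 34.0 TPM in inhibitory libraries. Both excitatory values lay above both inhibitory values, with a wide gap between the excitatory pair. The excitatory mean was 2.07-fold higher (63.8 ± 15.3 against 30.8 ± 4.49 TPM, SD, n = 2 each), with a log2 fold change of 1.01 ± 0.20 (SE, limma adjusted p = 0.0269). Bmp1 lies on chromosome 14 from 70474558 to 70520234 (minus strand). Its call was lost without a filter (adjusted p = 0.0835) and with no variance trend (adjusted p = 0.0779).

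Chrd, which encodes chordin, a secreted antagonist that binds BMP ligands, had the highest mean level of the 53 genes and the largest fold change of the tested ones toward excitatory nuclei. It stood at 97.3 and 112.7 TPM in excitatory and at 28.3 and 32.4 TPM in inhibitory libraries. The lowest excitatory value was far above the highest inhibitory one. The ratio of means was 3.46 (105 ± 10.9 against 30.4 ± 2.84 TPM, SD, n = 2 each). The log2 fold change was 1.76 ± 0.13 (SE, limma adjusted p = 0.00230), the 297th highest of 26055 genes. The calls of Chrd and of Smad3 were kept in all 8 alternative settings that used the 4 libraries. Chrd (chromosome 16, 20733127 to 20742384, plus strand) shares 239 exon bases with Thpo on the opposite strand.

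The other antagonists were lower in level and had no call. Fst encodes follistatin, which binds activins, and stood at 7.09 and 4.56 TPM in excitatory and at 2.66 and 1.64 TPM in inhibitory libraries. Its groups did not overlap, and the log2 fold change was 1.11 (95% interval 0.30 to 1.92, adjusted p = 0.0882). Nog, which encodes the BMP antagonist noggin, went the other way in level.

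Nog stood at 2.17 and 2.92 TPM in excitatory and at 5.18 and 4.59 TPM in inhibitory libraries. Its log2 fold change was -0.74 (95% interval -1.42 to -0.05, limma adjusted p = 0.153), with no overlap between the groups. Chrd therefore exceeded Nog 44.9-fold and 38.6-fold in the excitatory libraries and 5.47-fold and 7.05-fold in the inhibitory ones. This ratio of TPM within a library, like the other ratios given here, was chosen after the values were seen. The ratios were not tested, since an exact permutation test cannot go below p = 0.333 with 2 libraries against 2. Grem1 overlapped between groups at 1.33 to 1.79 TPM.

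None of the 12 receptor genes was called by limma, and 4 (Acvrl1, Bmpr1b, Acvr2b and Tgfbr3) had an unadjusted p under 0.05. Of all 26055 genes tested, 3062 were positive and 4194 negative at that threshold. All 12 passed the filter. Their summed level was 293 and 295 TPM in the excitatory and 285 and 269 TPM in the inhibitory libraries. The groups did not overlap for 11 of the 12, against 56.2% of all genes tested, with differences that were small for most. Acvrl1, counted among these 11 and among the 4 above, passed the filter only through inhibitory libraries. Its groups therefore could not overlap, and the 56.2% also includes genes that passed through 1 group alone.

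Among type I receptors, the activin receptor gene Acvr1b (ALK4) had the highest level. It stood at 59.8 and 57.2 TPM in excitatory and at 51.5 and 45.6 TPM in inhibitory libraries, a log2 fold change of 0.27 (95% interval -0.02 to 0.55, adjusted p = 0.208). Acvr1 (ALK2), a BMP type I receptor, stood at 33.0 and 31.0 against 26.9 and 25.4 TPM (log2 fold change 0.28, 95% interval -0.04 to 0.60, adjusted p = 0.226). Both were slightly higher in each excitatory library than in either inhibitory one. Bmpr1a (ALK3) stood at 20.4 and 21.0 against 26.6 and 22.5 TPM (log2 fold change -0.23, 95% interval -0.61 to 0.14, adjusted p = 0.391).

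Of the lower type I receptor genes, Bmpr1b and Acvrl1 showed the wider differences, and the genes in this paragraph were singled out after their values were seen. Bmpr1b (ALK6), the close relative of Bmpr1a, stood at 5.71 and 7.10 TPM in excitatory and at 3.55 and 3.11 TPM in inhibitory libraries (log2 fold change 0.77, 95% interval 0.12 to 1.42, adjusted p = 0.122). The ratio of Bmpr1b to Bmpr1a was 0.280 and 0.338 in excitatory and 0.133 and 0.138 in inhibitory libraries. Bmpr1a shares 290 exon bases with Gm17110 on the opposite strand. Acvrl1 (ALK1), a receptor best known from endothelium, stood at 0.550 and 0.538 TPM in excitatory and at 2.22 and 2.34 TPM in inhibitory libraries. It was the 1 tested gene of the pathway that passed the filter only through inhibitory libraries, so its difference partly follows from the filter.

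The log2 fold change of Acvrl1 was -1.09 ± 0.29 (SE, limma adjusted p = 0.0645), and it was called only with no variance trend (adjusted p = 0.0261). Of 5 endothelial markers, Cldn5 and Ly6c1 were listed at 0 in both inhibitory libraries. Pecam1 and Flt1 reached at most 0.737 and 0.293 TPM in any library and Tek stood at 4.66 to 6.40 TPM. The list summed to 6.68 and 7.87 TPM in excitatory and 5.46 and 6.48 TPM in inhibitory libraries. Tek made up most of these sums, while Pecam1 and Flt1 averaged 0.687 and 0.231 TPM in inhibitory against 0.521 and 0.214 TPM in excitatory libraries. The part of endothelial RNA in the result for Acvrl1 was not tested. Acvrl1 shares 127 exon bases with an antisense gene, Gm16031. The remaining type I receptor genes, Tgfbr1 (ALK5) and Acvr1c (ALK7), had means of 12.2 against 14.9 TPM and of 13.3 against 11.8 TPM with no call, and Tgfbr1 overlapped between groups.

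Type II receptors were led by Bmpr2, the BMP type II receptor, at 60.7 and 59.6 TPM in excitatory and 56.8 and 55.2 TPM in inhibitory libraries (log2 fold change 0.10, 95% interval -0.15 to 0.35, adjusted p = 0.590). Acvr2a, an activin type II receptor, stood at 56.2 and 65.5 against 47.9 and 50.5 TPM (log2 fold change 0.30, 95% interval -0.0032 to 0.60, adjusted p = 0.183). Its relative Acvr2b stood at 16.9 and 14.8 against 20.8 and 21.2 TPM (log2 fold change -0.39, 95% interval -0.78 to -0.0047, adjusted p = 0.175). The 2 activin type II receptors thus had estimates of opposite sign, and neither was called. Acvr2a shares 446 exon bases with Orc4 on the opposite strand.

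Tgfbr2, the TGF-beta type II receptor that Tgfbr1 pairs with, was low, at 0.858 and 1.34 TPM in excitatory and 1.73 and 1.91 TPM in inhibitory libraries (adjusted p = 0.416). Tgfbr1 averaged 13.5 TPM over the 4 libraries and Tgfbr2 1.46 TPM. The co-receptor gene Tgfbr3 (betaglycan), which presents TGF-beta and binds inhibin, stood at 12.0 and 12.9 against 17.4 and 17.7 TPM (log2 fold change -0.46, 95% interval -0.87 to -0.05, adjusted p = 0.137).

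The 7 tested SMAD genes held 1 call in each direction (28.6%, beside 12.0% of all genes tested). Smad3, a receptor SMAD of the TGF-beta and activin branch, stood at 56.5 and 51.8 TPM in excitatory and at 20.7 and 25.8 TPM in inhibitory libraries. Both excitatory values lay far above both inhibitory values, without overlap. The ratio of means was 2.33 (54.1 ± 3.28 against 23.2 ± 3.64 TPM, SD, n = 2 each), with a log2 fold change of 1.19 ± 0.15 (SE, limma adjusted p = 0.00737). Smad3 lies on chromosome 9 from 63646767 to 63757994 (minus strand) and overlaps no other annotated gene.

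Smad2, the partner of Smad3 in the same branch, was singled out after its values were seen. It stood at 24.4 and 21.5 TPM in excitatory and at 28.3 and 34.8 TPM in inhibitory libraries (log2 fold change -0.44, 95% interval -0.83 to -0.05, adjusted p = 0.142). The order of the pair therefore differed between the groups. The ratio of Smad3 to Smad2 was 2.32 and 2.41 in the excitatory libraries and 0.729 and 0.742 in the inhibitory ones, above 1 in each excitatory and below 1 in each inhibitory library.

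Smad5, a receptor SMAD of the BMP branch, stood at 15.5 and 11.5 TPM in excitatory and at 25.5 and 26.4 TPM in inhibitory libraries. The groups did not overlap, and the inhibitory mean was 1.92-fold higher (25.9 ± 0.609 against 13.5 ± 2.80 TPM, SD, n = 2 each). The log2 fold change was -0.91 ± 0.19 (SE, limma adjusted p = 0.0321). This call was lost under 4 settings, with adjusted p-values of 0.0769 without a filter, 0.0509 with median-of-ratios scaling, 0.0530 with quantile normalization and 0.0655 with no variance trend. Smad5 lies on chromosome 13 from 56703010 to 56742377 (plus strand) and shares 100 exon bases with Gm27301 on the same strand.

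The other BMP-branch SMADs had estimates of the same sign as Smad5 without a call. Smad1 stood at 26.4 and 31.6 TPM in excitatory and at 32.5 and 46.5 TPM in inhibitory libraries (log2 fold change -0.42, 95% interval -0.91 to 0.08, adjusted p = 0.245). Smad9 stood at 4.65 and 5.16 against 9.88 and 7.16 TPM (log2 fold change -0.68, 95% interval -1.31 to -0.04, adjusted p = 0.157). The groups did not overlap for the 3 genes, as for 56.2% of all genes tested.

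Summed within a library, Smad2 and Smad3 came to 80.9 and 73.3 TPM in excitatory and 49.0 and 60.6 TPM in inhibitory nuclei. Smad1, Smad5 and Smad9 together came to 46.5 and 48.2 TPM in excitatory and 67.8 and 80.0 TPM in inhibitory nuclei. The ratio of the first sum to the second was 1.74 and 1.52 in the excitatory libraries and 0.722 and 0.757 in the inhibitory ones. Within the first sum only Smad3 was higher in the excitatory libraries, while Smad2 was lower. All 8 SMAD genes summed to 180 and 175 TPM in excitatory and 179 and 196 TPM in inhibitory libraries, so the total differed less than its makeup.

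**Figure D3:**
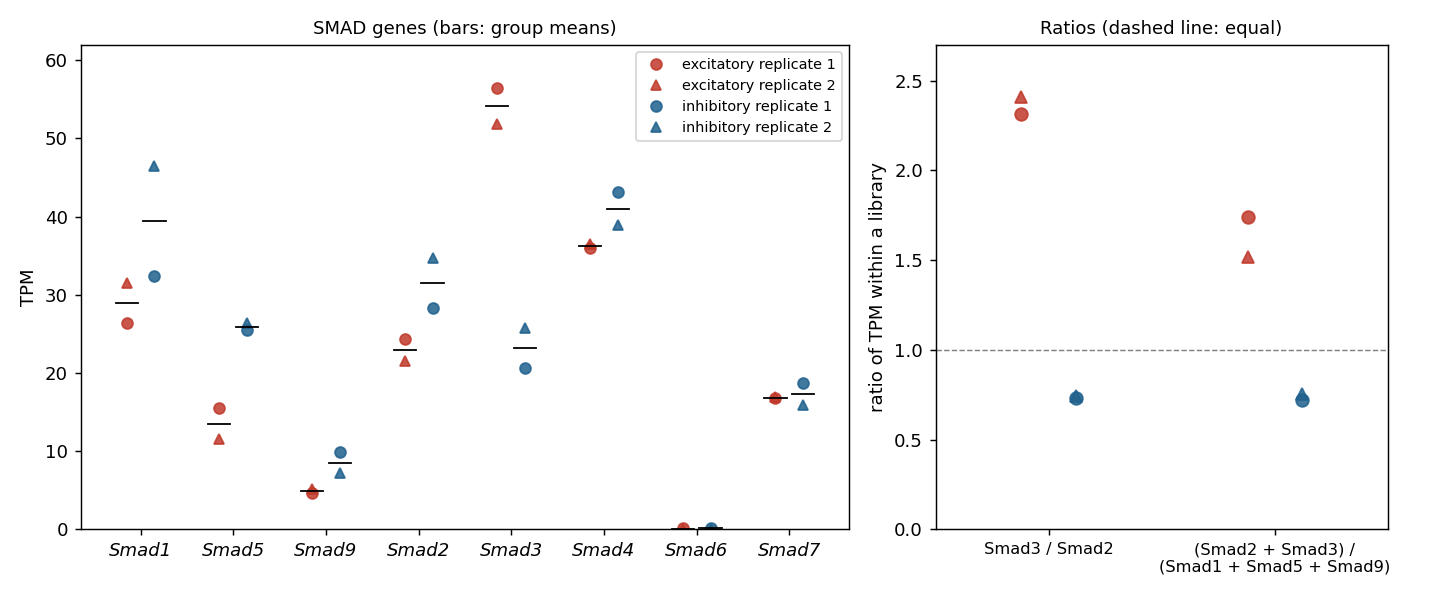
Left, TPM of the 8 SMAD genes in each library with group means as bars; right, ratios of TPM within each library, with a dashed line at 1. Smad3 over Smad2 is 2.32 and 2.41 in excitatory and 0.729 and 0.742 in inhibitory libraries. The ratio of Smad2 plus Smad3 to Smad1 plus Smad5 plus Smad9 is likewise above 1 in excitatory and below 1 in inhibitory libraries. Of Smad2 and Smad3, only Smad3 is higher in excitatory libraries.

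Smad4, the common partner of both branches, stood at 36.0 and 36.6 TPM in excitatory and at 43.1 and 39.0 TPM in inhibitory libraries (log2 fold change -0.17, 95% interval -0.47 to 0.12, adjusted p = 0.421). Of the inhibitory SMADs, Smad7 stood at 16.8 and 16.9 against 18.7 and 15.9 TPM, with overlapping groups. Its log2 fold change of -0.03 (95% interval -0.44 to 0.37) turned positive with median-of-ratios scaling or quantile normalization. Smad6, which mainly restrains the BMP branch, was at most 0.244 TPM in any library and was not tested.

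The other genes of the pathway were taken from a list of 67 modulators, storage proteins, co-receptors, intracellular regulators and targets. Of 52 tested, 2 were higher in excitatory nuclei, 6 higher in inhibitory ones and 44 had no call. The 8 calls are 15.4% of those tested, beside 12.0% of all genes tested. One of them, Thbs1, passed the filter only through inhibitory libraries, so it had to differ. Among genes that reached 1 TPM in at least 1 library of each group, the calls were 7 of 51, or 13.7%, beside 10.9% of all such genes. The split of 2 and 6 became 4 and 5 with median-of-ratios scaling and 3 and 5 with quantile normalization. The median log2 fold change was -0.01. Of the 8 calls, Ccn2 and Vwc2 were kept in all 8 alternative settings that used the 4 libraries, and without a filter the other 6 were lost. Nbl1 and Wwp1 were also lost with no variance trend, and Ltbp2 and Thbs1 with a pseudocount of 0.1 or quantile normalization. Ltbp2 was also lost with median-of-ratios scaling, and Thbs1 was not tested with a filter of at least 5 TPM.

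Extracellular modulators gave 1 call in each direction among 16 tested, a share of 12.5% that is near the 12.0% of all genes tested. Vwc2, which encodes brorin, a secreted BMP antagonist of the nervous system, stood at 5.53 and 5.92 TPM in excitatory and at 40.8 and 37.2 TPM in inhibitory libraries. The inhibitory mean was 6.81-fold higher (log2 fold change -2.57 ± 0.17, SE, limma adjusted p = 0.00169), the widest difference among the 52 genes and wider than that of Chrd. Nbl1, a BMP antagonist of the DAN family, stood at 19.8 and 20.9 TPM in excitatory and at 9.996 and 6.34 TPM in inhibitory libraries (log2 fold change 1.25 ± 0.24, SE, adjusted p = 0.0273).

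Genes for latent TGF-beta storage and activation gave 2 calls, both toward inhibitory nuclei, among the 7 that passed the filter in both groups (28.6%, beside 10.9% of all such genes). Ltbp3, a latent TGF-beta binding protein, stood at 21.8 and 27.5 TPM in excitatory and at 53.7 and 76.1 TPM in inhibitory libraries (log2 fold change -1.35 ± 0.20, SE, adjusted p = 0.0129). Thbs1, thrombospondin-1, which can activate latent TGF-beta, stood at 0.283 and 0.547 against 2.36 and 2.49 TPM. It is left out of that count, since only its inhibitory values reached 1 TPM. Ltbp2, a related matrix protein, was the remaining call, with a log2 fold change of -1.10 ± 0.26 (SE, limma adjusted p = 0.0477). Its call was lost under 4 of 8 settings (adjusted p up to 0.104). Uncalled estimates of the other sign included Ltbp4 (0.90, adjusted p = 0.0505), Nrros (0.95, adjusted p = 0.129) and Fbn2 (0.90, adjusted p = 0.134). Of the 8 tested genes, Thbs1 among them, 4 had a positive and 4 a negative estimate.

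Intracellular regulators gave 1 call among 16 tested (6.25%). It was Wwp1, a ubiquitin ligase, with a mean of 34.9 ± 3.06 TPM in excitatory and 54.2 ± 2.91 TPM in inhibitory nuclei (SD, n = 2 each; adjusted p = 0.0295). The ubiquitin ligases Smurf1 and Smurf2 and the SMAD corepressors Ski and Skil were not called, with estimates between 0.06 and 0.27. Of the 16 estimates, 7 were positive and 9 negative. The widest without a call was that of Bmp2k, at -0.61 (limma adjusted p = 0.11).

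Target genes in wide use as readouts of the pathway gave 1 call in each direction among 8 tested (25.0%, beside 12.0% of all genes tested). Ccn2, a matrix-associated protein gene that is induced by TGF-beta and is also known as a marker of cortical layer 6b neurons, stood at 24.8 and 21.5 TPM in excitatory and at 3.19 and 3.93 TPM in inhibitory libraries (log2 fold change 2.41 ± 0.22, SE, adjusted p = 0.00330). Id4, a helix-loop-helix inhibitor of the family induced by BMPs, stood at 8.25 and 6.24 against 20.3 and 16.2 TPM (log2 fold change -1.22 ± 0.23, SE, adjusted p = 0.0241). Its relatives Id2 (0.30) and Id3 (0.38) had log2 fold changes of the other sign and no call, and Id1 was not tested.

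**Figure D4:**
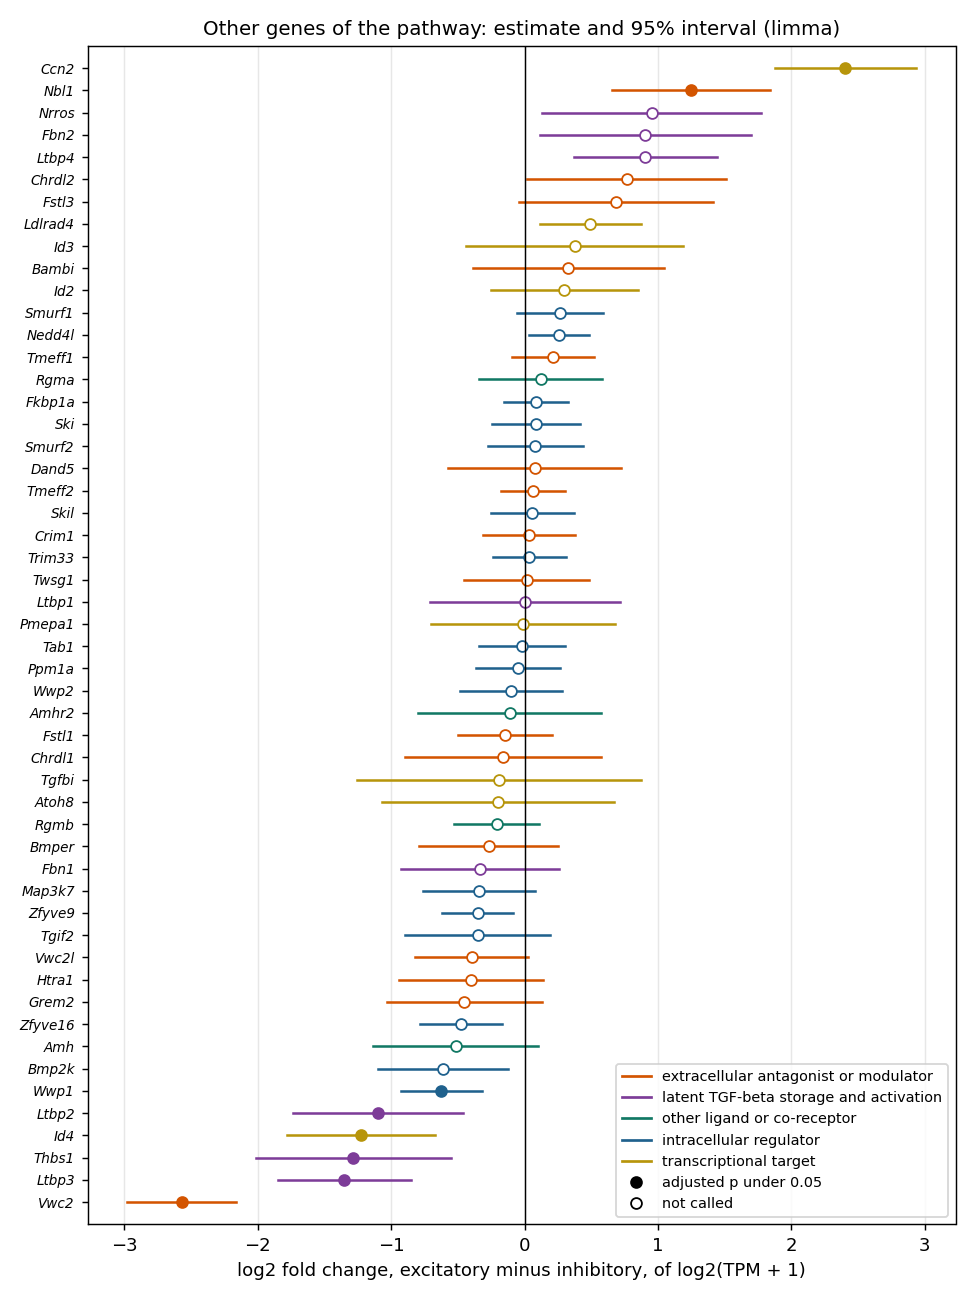
Log2 fold change of the 52 tested genes of the wider pathway list on the log2(TPM + 1) scale, with 95% intervals from limma and filled points at an adjusted p under 0.05. Ccn2 (2.41) and Nbl1 (1.25) lie to the right, and Vwc2 (-2.57) is the leftmost of the 6 filled points on the left.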

How the data were processed

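Per the labels' protocols, sorted nuclei gave total RNA that was cleared of ribosomal RNA, and strand-specific libraries were sequenced from both ends. The authors deposited 1 table of TPM values with 1 column per library. The submitters' processing notes name StringTie 2.2.1, Bowtie2 2.3.5, HISAT2 2.2.1, fastp 0.23.4 and the build mm10. What each tool did, which annotation was used and whether strand was counted is not stated there. Columns summed to between 999833 and 999891, and TPM keeps no depth, so no counting interval was computed.

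Groups and replicate numbers came from sample titles. The pseudocount was 1, and log2(TPM + 1) was used where a gene reached 1 TPM in 2 or more libraries. Groups were compared by limma 3.58.1 in R 4.3.3 (moderated test with a variance trend, two-sided, with 2 residual and 4.04 prior degrees of freedom, Benjamini-Hochberg adjustment over the 26055 genes tested). The script was tested on simulated data. A fold is a ratio of mean TPM values. Log2 fold changes are on the log2(TPM + 1) scale, which understates the change of low genes. Figures were drawn with matplotlib 3.10.9.

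Genes and lists were chosen with earlier results of these data known, so counts are descriptions. Values per library are given for each called gene and for the 3 genes of each role with the highest mean TPM; of the wider pathway list each called gene is named. Other genes named were picked after their values were seen. Positions came from GENCODE M21 and upstream sequences from RefSeq (GRCm38.p6), where 37 of the 53 symbols had an entry. Alternatives were other pseudocounts, filters and scalings, no variance trend, the replicate number as a block and leaving out each library.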

Additional observations from a re-analysis of the deposited data

How the results depend on the processing

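Under 8 settings that used all 4 libraries, Chrd, Smad3, Ccn2 and Vwc2 kept their direction and call. Without a filter on low values, 666 and 740 of all genes were called toward excitatory and inhibitory nuclei, in place of 1414 and 1725. In the same setting the pathway genes gave 2 and 0 calls, and the wider list 1 and 1. The calls of pathway genes toward inhibitory nuclei numbered 1 with a pseudocount of 0.1, 1 with a filter of at least 5 TPM, and 0 with median-of-ratios scaling or quantile normalization. Bmp6 was not tested at 5 TPM. Calls of the wider list toward excitatory nuclei numbered 4 with median-of-ratios scaling, 1 with no variance trend and 4 with the replicate number as a block. With any 1 library left out, every count ranged from 0 to 0, with 4 to 6 and 4 to 5 of the pathway genes positive and negative at an unadjusted p under 0.05. The libraries left out were excitatory replicates 1 and 2 and inhibitory replicates 1 and 2, and each such fit had fewer samples.

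The labels do not say that the replicate numbers pair the samples, and deviations of same-numbered libraries correlated at 0.0957. With the replicate block, 1946 and 2382 of all genes and 4 and 2 of the pathway genes were called, the latter the 6 called without it.

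Directions that turned belonged to genes without a call, and the cause was not tested. Under median-of-ratios scaling and quantile normalization, the log2 fold change of Smad7 was 0.0366 and 0.0402. With 1 library left out, log2 fold changes ranged from -0.18 to 0.32 for Gdf7, from -0.23 to 0.78 for Gdf9, from -0.0708 to 0.19 for Grem1, from -0.25 to 0.40 for Inha, from -0.14 to 0.0765 for Smad7 and from -0.52 to 0.0839 for Tgfb2. Negative values arose for Gdf7 and Inha without excitatory replicate 2 (-0.18 and -0.0562) or inhibitory replicate 1 (-0.0969 and -0.25), for Gdf9 without inhibitory replicate 2 and for Grem1 without excitatory replicate 2. Positive ones arose for Smad7 without inhibitory replicate 1 and for Tgfb2 without excitatory replicate 2.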
